A study of Mus musculus with 4 samples.

Results

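The differentiating neuron genes are 10 transcripts that mark cells leaving the neural progenitor state: Neurog2, Onecut1, Onecut2, Elavl3, Elavl4, Tubb3, Map2, Dcx, Stmn2 and Ina. They were chosen by gene symbol. All 10 were among the 24831 genes listed in each count table, and 9 of the 10 had enough counts to be tested, among 13602 genes. The exception was Onecut1. Expression was measured by RNA sequencing in mouse somitic gastruloids, which are aggregates of embryonic stem cells that elongate in culture and form presomitic tissue, somites and neural tissue. All libraries came from E14 cells that carry a triple reporter and an HA tag with the FKBP12F36V degron on the endogenous Zeb2 gene, so the controls carry the tagged allele too. Each aggregate was started from 300 cells, was given 3 μM CHIR99021, a WNT pathway activator, from 48 h, and was embedded in 10% Matrigel at 96 h. The dTAG13 group received 100 nM of dTAG-13, which marks the tagged ZEB2 protein for degradation, at 72 h and 96 h. The other group is labelled untreated, and the growth protocol gives DMSO as the control. Each group had 2 libraries, numbered 1 and 2, from 1 cell line. No label says whether the numbers stand for separate cultures, and the p-values given here therefore speak only of the spread among these 4 libraries, which could be technical.

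When a neural progenitor becomes a neuron it stops dividing under the control of proneural factors of the basic helix-loop-helix class, such as the protein encoded by Neurog2. NOTCH signalling between neighbouring cells holds back that step, and later transcription factors such as those of the ONECUT family act in newborn neurons. RNA-binding proteins of the ELAVL family then stabilise neuronal messages, while a neuronal tubulin, microtubule-associated proteins and an intermediate filament build the axon and dendrites. ZEB2, the protein targeted here, is a zinc finger transcription factor that binds E-box sequences and is known in neural development as well as in the repression of epithelial genes.

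Promoter sequences are shown for the members that the results turn on. Elavl3 and Elavl4 had lower counts in both dTAG13 libraries, and Tubb3 and Ina differed mainly between replicate numbers. Each is the 250 bases before an annotated start, 5′ to 3′ on the strand of the gene, from RefSeq in GRCm38.p6. Capitals mark CACCTG (or CAGGTG on the other strand), an E-box form bound by ZEB and other E-box proteins, and CAGATG (or CATCTG), a form bound by proneural factors.
Elavl3, chr9:22052024-22052273, minus strand: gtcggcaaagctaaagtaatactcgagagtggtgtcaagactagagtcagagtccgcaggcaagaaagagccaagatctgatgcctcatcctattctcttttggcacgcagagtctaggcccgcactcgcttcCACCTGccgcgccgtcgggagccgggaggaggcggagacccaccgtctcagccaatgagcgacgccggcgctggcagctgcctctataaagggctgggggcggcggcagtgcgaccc
Elavl4, inner start, chr4:110287528-110287777, minus strand: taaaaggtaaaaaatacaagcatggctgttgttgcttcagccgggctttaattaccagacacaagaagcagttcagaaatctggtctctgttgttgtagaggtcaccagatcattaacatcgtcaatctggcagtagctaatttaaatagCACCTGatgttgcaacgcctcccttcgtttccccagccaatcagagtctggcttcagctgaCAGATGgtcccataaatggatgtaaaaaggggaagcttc
Elavl4, outer start, chr4:110351912-110352161, minus strand: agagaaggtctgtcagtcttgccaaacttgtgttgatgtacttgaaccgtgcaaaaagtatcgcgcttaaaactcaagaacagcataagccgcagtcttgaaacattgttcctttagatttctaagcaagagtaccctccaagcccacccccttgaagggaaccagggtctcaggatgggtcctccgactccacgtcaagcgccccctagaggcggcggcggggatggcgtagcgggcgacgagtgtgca
Tubb3, chr8:123411303-123411552, plus strand: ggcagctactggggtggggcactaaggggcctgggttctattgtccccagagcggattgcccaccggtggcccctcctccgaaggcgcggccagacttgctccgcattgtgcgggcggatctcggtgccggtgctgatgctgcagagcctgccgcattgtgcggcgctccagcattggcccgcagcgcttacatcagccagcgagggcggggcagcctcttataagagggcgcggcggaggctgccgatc
Ina, chr19:47014431-47014680, plus strand: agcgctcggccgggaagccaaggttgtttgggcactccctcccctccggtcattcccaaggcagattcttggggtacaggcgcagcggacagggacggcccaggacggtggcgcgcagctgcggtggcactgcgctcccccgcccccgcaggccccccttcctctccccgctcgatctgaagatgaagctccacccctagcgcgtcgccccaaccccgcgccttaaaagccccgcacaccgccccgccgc
The Elavl3 window held CACCTG with its leading base at -117 from the start that follows the window. In RefSeq the gene reaches 22052146, so that match lies inside the RefSeq gene span and not before it. The outer Elavl4 window likewise overlaps the RefSeq span of the gene, which ends at 110351939. The Tubb3 window holds the GENCODE start of the gene, 123411424. The inner Elavl4 window held CACCTG at -100 and CAGATG at -39, and the outer one held neither. RefSeq windows were found for 8 of the 10 members, all but Stmn2 and Onecut2. These 8 have 12 windows. CACCTG was in 3 of the 12, 1 of Elavl3 and 2 of Elavl4, and in 17.2% of all 32851 windows of that length. CAGATG was in 3 of the 12, all of Elavl4, and in 14.4% of all windows. Elavl4 has 4 annotated starts, of which 2 lie so close that their windows overlap and share the same matches, and the window of another inner start held CATCTG at -101. A match is a description of the letters and not a measured binding site.

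Reads counted in genes ranged from 11491330 to 12716172 per library. A single count was worth 0.0753 to 0.0890 CPM, the counts scaled to a common library size that allows for library composition. The members had 813 to 1388 counts together in a library. Their summed level was 74.3 and 109.9 CPM in untreated replicates 1 and 2, and 69.4 and 117.9 CPM in dTAG13 replicates 1 and 2. The sum was thus higher in replicate 2 than in replicate 1 of both groups, and the groups overlapped. Zeb2 mRNA was at 98.3 and 164 CPM untreated, against 103 and 108 CPM with dTAG13, and the level of the mRNA does not check the removal of the protein. Reads counted outside genes made up 35.7% in untreated replicate 1 and 24.1% to 29.2% in the other libraries. Over all 13602 genes edgeR called 0 at an adjusted p of 0.05, so the background share of called genes was 0%. At an unadjusted p under 0.05 it had 312 genes higher (2.29%) and 167 lower (1.23%), and DESeq2 called 39 of the 13258 genes to which it gave an adjusted p (0.294%).

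Per kilobase of exon, the members differed widely in level. On this scale, CPM per kilobase averaged over the 4 libraries, Ina was at 6.05, Stmn2 at 5.19 and Tubb3 at 4.54. Elavl4 and Neurog2 were both at 1.02, followed by Map2 at 0.938 and Onecut2 at 0.526. Elavl3 was at 0.321, Dcx at 0.115 and Onecut1 at 0.0785. Ina ranged from 4.07 to 8.81 over the libraries, Stmn2 from 3.23 to 7.50 and Tubb3 from 2.56 to 6.50, so the order among these 3 lies within their spread. The same holds for Elavl4, Neurog2 and Map2, which ranged from 0.697 to 1.39, from 0.536 to 1.20 and from 0.751 to 1.12. The neurofilament, stathmin and tubulin transcripts thus stood above the transcription factors and RNA-binding proteins in every library on this scale. Exon lengths are those of all GENCODE M21 transcripts joined, and the annotation behind the deposited counts may differ.

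The comparison of dTAG13 with untreated asks which neuronal transcripts differ after the degrader is added. The level of the ZEB2 protein was not measured in these data. None of the 9 tested members passed an adjusted p of 0.05 in edgeR (all at 1.00) or in DESeq2. A fit with a term for the replicate number, described with the alternatives, called 4.68% of all genes (1.77% lower) and 1 of the 9 members, Onecut2. Onecut2, Elavl4 and Elavl3 were lower in both dTAG13 libraries than in either untreated library, with fitted log2 fold changes of -0.79, -0.75 and -0.62. These 3 of 9 members compare with 11.9% of all genes tested whose groups stood apart in that direction, and 0 of 9 stood apart in the other, against 14.4%. Tubb3, Stmn2, Ina and Map2 instead differed by more between replicate numbers than between groups. The plot of normalised counts by library shows these patterns for each member.

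**Figure D1:**
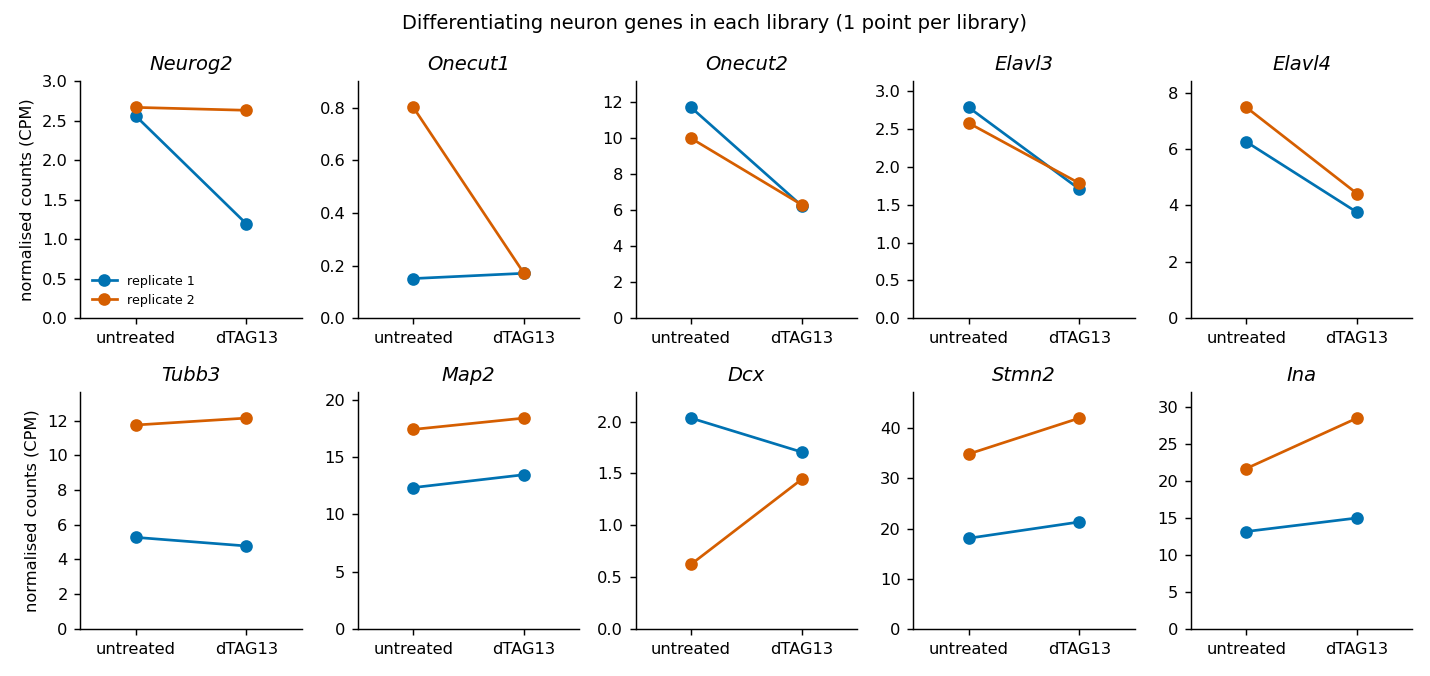
Normalised counts (CPM, vertical axis from 0, scaled for each gene) of the 10 genes in untreated and dTAG13 gastruloids, with 1 point per library and lines joining libraries of the same replicate number. Onecut2, Elavl3 and Elavl4 were lower in both dTAG13 libraries, while Tubb3, Map2, Stmn2 and Ina were higher in replicate 2 of both groups.

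Among the transcription factors, Onecut2 (chromosome 18, 64340020 to 64400987 in GRCm38) encodes a cut-homeodomain factor of newborn spinal neurons that is also known in endoderm. It was at 11.7 and 9.96 CPM in untreated replicates 1 and 2 and at 6.23 and 6.28 CPM in dTAG13 replicates 1 and 2. Both dTAG13 libraries lay below both untreated ones, and they were nearly equal to each other. Its mean went from 10.8 ± 1.21 to 6.26 ± 0.0400 CPM (SD, n = 2 each). The fitted log2 fold change was -0.79 ± 0.28 (SE). The unadjusted edgeR p was 0.0279, and it was the only 1 of the 9 members under 0.05, against 1.23% of all genes that were lower at that p. The difference within replicate number was -0.89 in number 1 and -0.65 in number 2 on the log2 scale. Replicates of a group differed by -0.23 (untreated) and 0.01 (dTAG13), so the group difference was larger than the spread between replicates.

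Onecut1 (chromosome 9, 74861921 to 74891781), the paralog known from liver and pancreas as well as spinal neurons, was close to the limit of detection. It had 2 and 9 counts in untreated replicates 1 and 2 and 2 in each dTAG13 library. These are 0.151 and 0.801 CPM untreated, against 0.171 and 0.170 CPM with dTAG13. The untreated replicate 2 library was the high one, with an exact 95% Poisson interval of 0.366 to 1.52 CPM, which overlaps the 0.0207 to 0.616 CPM of dTAG13 replicate 1. No difference was detectable at this depth. Intervals of this kind hold counting error alone and leave out variation between libraries. They may also be too narrow, because reads that carry no molecular identifier may repeat 1 molecule.

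Neurog2 (chromosome 3, 127633135 to 127635631), which drives progenitors into neuronal differentiation, was at 2.56 and 2.67 CPM untreated, against 1.19 and 2.63 CPM with dTAG13. Only dTAG13 replicate 1, with 14 counts, was low, and dTAG13 replicate 2 stood between the untreated libraries. The fitted log2 fold change was -0.45 ± 0.51 (edgeR unadjusted p = 0.412, adjusted p = 1.00), and it was 0.0087 without dTAG13 replicate 1 and -1.14 without dTAG13 replicate 2. The log2 difference was -1.003 within number 1 and -0.02 within number 2.

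Elavl4 (chromosome 4, 110203722 to 110351909) and Elavl3 (chromosome 9, 22015005 to 22052023) encode HuD and HuC, RNA-binding proteins that appear as cells become neurons. Elavl4 was at 6.25 and 7.47 CPM without treatment and at 3.75 and 4.42 CPM after dTAG13. Both dTAG13 values were below both untreated values. The mean was 6.86 ± 0.864 CPM untreated and 4.08 ± 0.468 CPM with dTAG13 (SD, n = 2 each). The fitted log2 fold change was -0.75 ± 0.34 (edgeR unadjusted p = 0.0655, adjusted p = 1.00). The log2 difference was -0.71 in number 1 and -0.74 in number 2. Replicates differed by 0.25 and 0.23, which is less than the difference between groups.

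Elavl3 was at 2.79 and 2.58 CPM untreated, against 1.71 and 1.78 CPM with dTAG13. Again the groups did not overlap, and replicates differed by -0.10 and 0.06 on the log2 scale, against -0.66 and -0.49 between groups. The fitted change was -0.62 ± 0.42 (edgeR unadjusted p = 0.186, adjusted p = 1.00). It rests on 20 to 37 counts per library, and the exact Poisson interval of untreated replicate 1, 1.96 to 3.84 CPM, overlaps that of dTAG13 replicate 1, 1.04 to 2.63 CPM. The third neuronal member of the family, Elavl2, which was picked after its values were seen, was at 60.0 and 55.3 CPM untreated, against 58.5 and 64.4 CPM with dTAG13. Its log2 fold change was 0.09 ± 0.14 and its groups overlapped. Whether Elavl2 differs from Elavl3 and Elavl4 in its response was not tested.

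The cytoskeletal members gave another pattern. Tubb3 (chromosome 8, 123411424 to 123422015), the neuronal beta-tubulin widely used to stain neurons, was at 5.27 and 11.7 CPM untreated, against 4.78 and 12.1 CPM with dTAG13. Replicate 2 was high in both groups and replicate 1 low in both, so the groups overlapped. The group means were 8.51 ± 4.58 and 8.46 ± 5.21 CPM (SD, n = 2 each). Replicate 2 exceeded replicate 1 by a log2 value of 1.13 untreated and 1.32 with dTAG13, while dTAG13 differed from untreated by -0.14 in number 1 and 0.05 in number 2. The standard error of its fitted change was 0.59 on the log2 scale with the group as the only term. Changes of that order in either direction could not be seen in that fit. With a term for the replicate number the fitted change was -0.03 ± 0.26, but no label says that the numbers pair the libraries.

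Stmn2 (chromosome 3, 8509360 to 8561606) encodes a stathmin that regulates microtubules in growth cones. It was at 18.1 and 34.9 CPM untreated, against 21.3 and 42.0 CPM with dTAG13. Both replicate 2 libraries stood above both replicate 1 libraries, by log2 values of 0.94 and 0.97, and dTAG13 was above untreated by 0.24 and 0.27 within the numbers. Its fitted change was 0.26 ± 0.48 (edgeR adjusted p = 1.00), smaller than the spread between replicates.

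Ina (chromosome 19, 47014698 to 47025327), which encodes alpha-internexin, an intermediate filament protein of early neurons, was at 13.2 and 21.7 CPM untreated, against 15.01 and 28.5 CPM with dTAG13. It had the same order of libraries as Stmn2, with replicate 2 above replicate 1 by 0.71 and 0.92. The difference between groups was 0.19 in number 1 and 0.39 in number 2, and the fitted change was 0.32 ± 0.40. Exons of Ina share 456 bases with Nt5c2 on the opposite strand in GENCODE M21, and reads there cannot be told apart if strand was not used. Map2 (chromosome 1, 66175273 to 66442583), a microtubule-associated protein of dendrites, was at 12.4 and 17.4 CPM untreated, against 13.5 and 18.4 CPM with dTAG13. Replicate 2 was higher by 0.49 and 0.45, against group differences of 0.12 and 0.08.

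Dcx (chromosome X, 143855842 to 143933311), a microtubule-binding protein of migrating neurons, was the cytoskeletal member that did not follow this order. It was at 2.03 and 0.623 CPM untreated, against 1.71 and 1.44 CPM with dTAG13. Untreated replicate 2, with 7 counts, was low, and the dTAG13 libraries stood between the untreated ones. The difference between groups was -0.23 in number 1 and 1.03 in number 2, so the numbers gave opposite signs, and the fitted change was 0.23 ± 0.63.

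**Figure D2:**
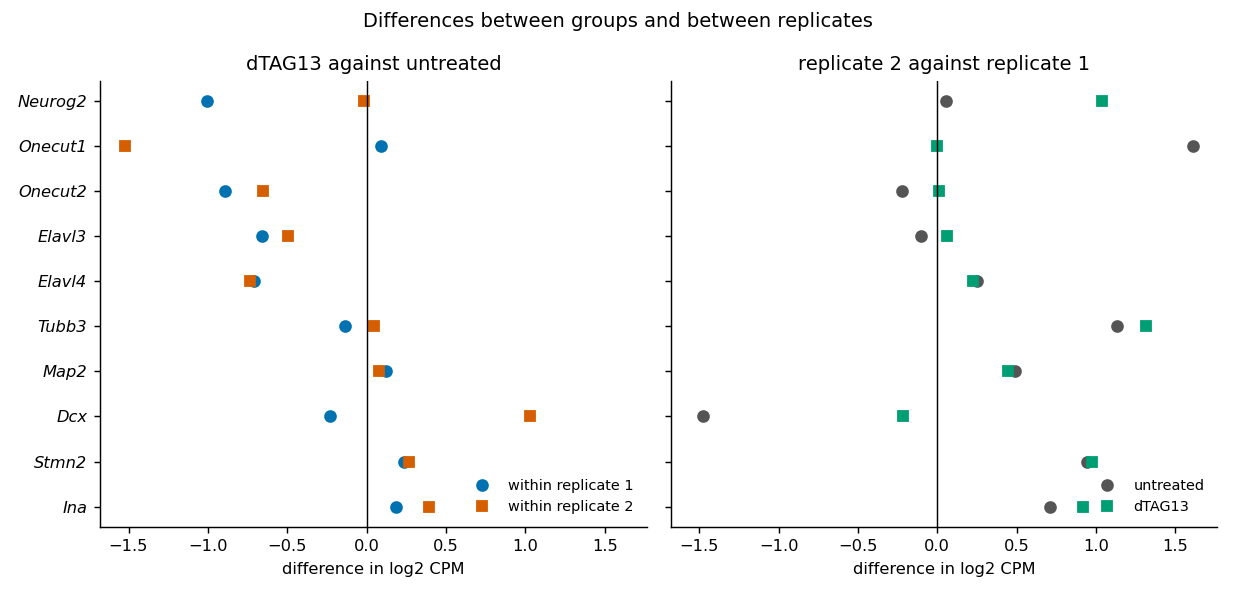
Differences in log2 CPM (horizontal axis) of the 10 genes between dTAG13 and untreated within each replicate number (left) and between replicates 2 and 1 within each group (right), with a prior count of 2 added. Onecut2, Elavl3 and Elavl4 lie at -0.49 or below on the left and closer to 0 on the right, and Tubb3, Stmn2 and Ina lie at 0.71 or above on the right.

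Counted over the members, 5 of the 9 tested were higher in both replicate 2 libraries than in both replicate 1 libraries, where 23.1% of all genes tested were. They were Tubb3, Stmn2, Ina, Map2 and Neurog2, and Neurog2 met this by 2.63 against 2.56 CPM only. Dcx was lower in both replicate 2 libraries, as were 24.9% of all genes. By group, 4 of 9 members were lower with dTAG13 in both numbers (23.9% of all genes) and 3 of 9 were higher in both (27.7%). The median log2 fold change of the 9 was -0.0038, beside 0.0040 over all genes tested. Within the numbers, the median was -0.23 in number 1 and 0.05 in number 2, and leaving out dTAG13 replicate 1 or 2 gave 0.10 or -0.67, while leaving out untreated replicate 1 or 2 gave -0.49 or -0.37.

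Values without each library in turn follow from the order of the libraries given above. Where groups do not overlap the sign cannot change, so it is no sign of stability. The fitted log2 fold change of Onecut2 ranged between -0.90 and -0.69, that of Elavl4 between -0.89 and -0.61 and that of Elavl3 between -0.67 and -0.58. Tubb3 was at 0.68 without untreated replicate 2, 0.52 without dTAG13 replicate 1, -0.49 without untreated replicate 1 and -0.85 without dTAG13 replicate 2. Stmn2 was at -0.33 and Ina at -0.23 without dTAG13 replicate 2, and they were at 0.81 and 0.72 without untreated replicate 2. Map2 ranged from -0.16 without dTAG13 replicate 2 to 0.37 without untreated replicate 2, and Dcx from -0.37 without untreated replicate 2 to 1.31 without untreated replicate 1. No member passed the adjusted threshold in any of these fits, in which the lone library of a group is assumed to vary like the others.

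**Figure D3:**
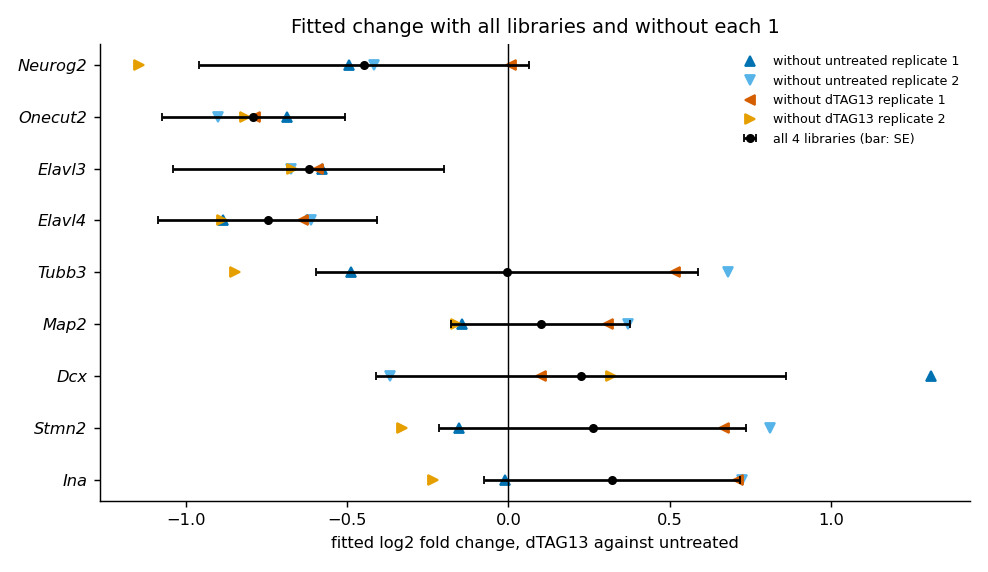
Fitted log2 fold change of dTAG13 against untreated (horizontal axis) for the 9 tested genes, with all 4 libraries (black, bar of 1 SE) and without each library in turn (triangles). The values of Tubb3 span -0.85 to 0.68 and those of Onecut2 -0.90 to -0.69, and the sign is fixed for the 3 genes whose groups do not overlap (Onecut2, Elavl3 and Elavl4).

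Other neuronal genes were read from lists of related functions, and no gene of these lists passed the adjusted threshold in edgeR with the group as the only term. DESeq2 also called 0 in the neuronal, NOTCH and REST lists. The edgeR fit with a term for the replicate number called 4.68% of all genes. In it 2 RNA-binding, 3 cytoskeletal and 5 axon and adhesion genes were called, all lower. The 2 synaptic and 5 spinal genes called were all higher. Of the 7 NOTCH genes called, 3 were higher and 4 lower, and 0 proneural or REST genes were called. Of the genes named below, those calls took in Nova1, Gap43, Dclk2, Hes5, Dll1, Chl1, Ncam1, Lmx1b and Evx1. Without single libraries several list medians moved widely, as given with the alternatives. Neuronal RNA-binding and splicing factors had a median log2 fold change of -0.51 over 13 tested genes of 14. Of these, 11 had a fold change below 0, 10 were lower in both numbers and 5 had groups that did not overlap, where 11.9% of all genes were apart in that direction. Nova1, a neuronal splicing regulator, was at 33.6 and 31.3 CPM untreated, against 22.3 and 23.3 CPM with dTAG13 (log2 fold change of -0.51 ± 0.16). Rbfox3, the antigen NeuN of neuronal nuclei, was at 5.57 and 6.58 CPM untreated, against 2.56 and 4.42 CPM with dTAG13 (-0.80 ± 0.41). These values had the same order of groups as Elavl3 and Elavl4. Both genes were named by the rule of smallest p in this comparison, which favours groups that stand apart, so the shared order is no support. The median of the list was -0.14 without untreated replicate 2, -0.26 without dTAG13 replicate 1 and -0.26 over its genes with at least 50 counts in 2 libraries.

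Neuronal cytoskeleton and growth cone genes had a median of -0.13 over 29 tested genes, with 14 lower and 5 higher in both numbers. In that list 11 of 29 were higher in both replicate 2 libraries and 5 lower, beside 23.1% and 24.9% of all genes. Synaptic genes (7 of 18 higher, 3 lower) and RNA-binding genes (4 of 13 higher, 2 lower) leaned the same way. Proneural (7 of 11), axon and adhesion (10 of 22), spinal (7 of 14) and NOTCH (9 of 25) genes were more often lower. In these lists 3, 4, 4 and 3 genes were higher. Nefl, Nefm and Nefh were among the 11 cytoskeletal genes higher in replicate 2. They are the neurofilament subunits that assemble with alpha-internexin and were picked after their values were seen. Nefl was at 12.4 and 20.7 CPM untreated, against 14.0 and 23.7 CPM with dTAG13, in the order seen for Ina. Gap43 and Dclk2, named by the rule of smallest p, lay lower in both dTAG13 libraries. Gap43, a growth cone protein, was at 8.59 and 22.6 CPM untreated, against 6.74 and 8.24 CPM with dTAG13, and Dclk2, a relative of Dcx, had a log2 fold change of -0.65 ± 0.25.

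Upstream of the members, many of the proneural and differentiation factors were sparse. Only 11 of 26 had enough counts to be tested, and Neurod2 had 0 counts in every library. Others were abundant, such as Sox11 and Sox4, picked after their values were seen. Sox11 was at 455 and 409 CPM untreated, against 602 and 319 CPM with dTAG13. Sox4 was at 172 and 146 CPM untreated, against 179 and 114 CPM with dTAG13. Neurog1, the paralog of Neurog2 and chosen after its values were seen, was at 0.0753 to 0.356 CPM over the libraries. Neurod1, which acts downstream of neurogenins, was at 2.18 and 4.45 CPM untreated, against 0.597 and 2.38 CPM with dTAG13, a log2 fold change of -1.14 ± 0.72 with overlapping groups. Ebf1, a factor of early neurons and of mesoderm, had -0.54 ± 0.38. The median of the 11 was -0.23, with 7 lower and 0 higher in both numbers.

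Genes of NOTCH lateral inhibition had a median of 0.0048 over 25 genes, with 8 lower and 8 higher in both numbers. Hes5, the NOTCH target that keeps progenitors undifferentiated, was at 15.7 and 10.7 CPM untreated, against 4.86 and 1.95 CPM with dTAG13 (-1.95 ± 0.48). Dll1, the ligand made by cells entering differentiation and also by presomitic mesoderm, was at 109.9 and 127 CPM untreated, against 89.7 and 60.3 CPM with dTAG13 (-0.66 ± 0.21). Neither passed the adjusted threshold in edgeR without the term for the number. Rest, the repressor of neuronal genes in other cells, was at 219 and 211 CPM untreated, against 272 and 245 CPM with dTAG13 (0.26 ± 0.13). REST and its corepressors had a median of 0.05 over 13 genes, with the deacetylase gene Hdac1 at 0.13 ± 0.13.

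Synaptic and axon genes showed small medians, and the spinal factors a larger one. Synaptic and transmitter genes had a median of -0.20 over 18 tested of 27, with Syt11 at -0.52 ± 0.28 and Snap25 at -0.74 ± 0.44. Slc17a6, Slc32a1 and Chat, which mark the transmitter type of a neuron, had too few counts to be tested. Axon guidance and adhesion genes had a median of -0.17 over 22, and Chl1, an adhesion molecule of the L1 family, was at 3.62 and 3.91 CPM untreated, against 0.512 and 0.934 CPM with dTAG13 (-2.36 ± 0.50). Ncam1, the neural cell adhesion molecule, had -1.01 ± 0.29. Transcription factors of motor, spinal and sensory neurons had a median of 0.67 over 14 tested of 28 listed in the tables, and 8 were higher in both numbers, but the median was -0.18 without dTAG13 replicate 1 and 0.27 without untreated replicate 2. Lmx1b was at 10.5 and 22.3 CPM untreated, against 26.7 and 82.4 CPM with dTAG13, and Evx1 had 0.89 ± 0.24. Many genes of that list are also known in mesoderm, endoderm or the tail bud. None of these passed the adjusted threshold in edgeR without the term for the number.

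**Figure D4:**
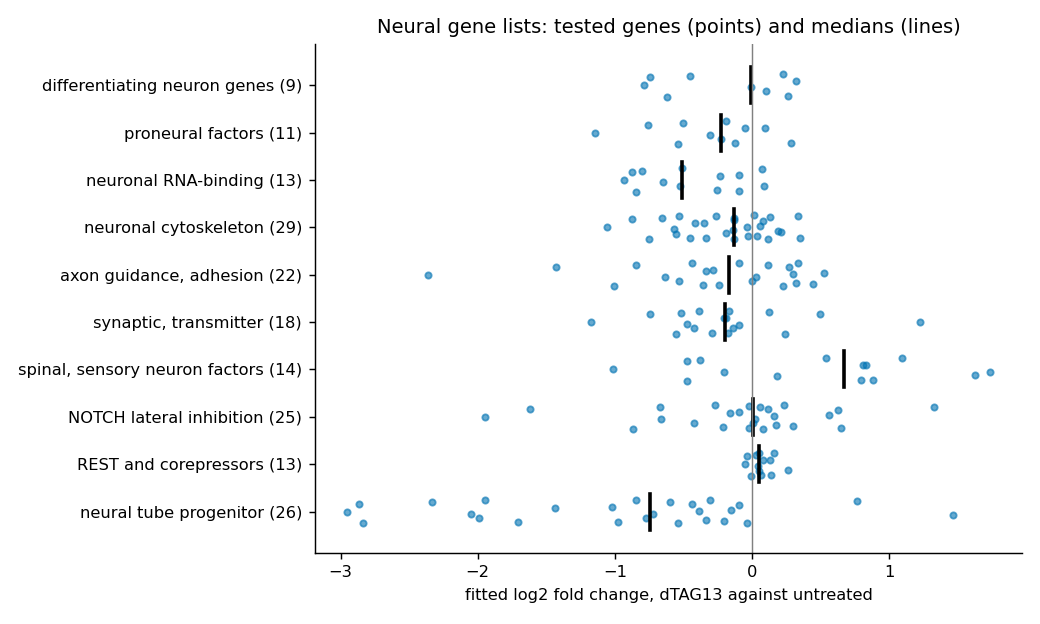
Fitted log2 fold change of dTAG13 against untreated (horizontal axis) of each tested gene (points, spread vertically for legibility) in 10 neural gene lists, with the median as a line and the number of genes in brackets. The median was -0.51 for neuronal RNA-binding genes, -0.0038 for the differentiating neuron genes and -0.75 for neural tube progenitor genes.

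Markers of the cells around the neurons also differed between the libraries. In bulk RNA, fewer cells of a type and less RNA per cell cannot be told apart. Neural tube progenitor genes, from which neurons arise, had a median of -0.75 over 26 tested of 27. Of the 26, 21 were lower in both numbers, where 23.9% of all genes tested were. The summed level of the list was 1113 and 1384 CPM in the untreated group and 964 and 979 CPM in the dTAG13 group. Ptn, a secreted growth factor of progenitors, had -0.85 ± 0.15 and Pou3f2, a neural POU factor, -1.99 ± 0.41. DESeq2 called 4 genes of the list lower, Ptn among them, and elsewhere 5 epithelial genes higher (Krt8 and Krt18 among them), Erbb3 higher and Dmrt2 lower. Against these, the members' summed level overlapped between groups. Most of that sum came from Stmn2, Ina, Map2 and Tubb3, which differed mainly between replicate numbers. Onecut2, Elavl4 and Elavl3 had values of the progenitor list's sign and size. Whether members and progenitor genes differ in their response was not tested.

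Epithelial markers moved the other way, with a median of 1.29 (0.72 without dTAG13 replicate 2) and 19 of 19 higher in both numbers, summed at 779 and 1083 CPM in the untreated group and at 1397 and 2616 CPM in the dTAG13 group. Krt8 and Krt18, keratins of simple epithelia, had 1.40 ± 0.27 and 1.08 ± 0.22. Somite and presomitic genes had a median of -0.97 over 16 (-0.63 without untreated replicate 1 and -0.58 over genes with at least 50 counts in 2 libraries), summed at 484 and 333 CPM untreated, against 340 and 200.4 CPM with dTAG13, with Dmrt2 at -1.996 ± 0.32 and Tcf15 at -1.29 ± 0.31. Neural crest genes, which can also give sensory neurons, had a median of 0.18 over 10 tested of 14. Foxd3 was at 0 in every library, and the list summed to 129 to 176 CPM untreated and 193 to 235 CPM with dTAG13. In it Erbb3 had 1.20 ± 0.23 and Ednrb -1.59 ± 0.39. Gut endoderm genes, where Onecut factors are also known, had a median of 0.33 over 12 tested of 16, summed at 311 to 458 CPM untreated and 398 to 524 CPM with dTAG13. Afp was at 0, and Apela and Foxa2 had 0.68 ± 0.19 and 0.70 ± 0.20. The part of these cell types in the members' values was not tested.

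Other markers also differed between the replicate numbers, some of them in the opposite direction to Tubb3, Stmn2, Ina and Map2. Cardiac and lateral plate genes summed to 93.1 and 119.7 CPM in the replicate 1 libraries and to 13.2 and 19.5 CPM in the replicate 2 libraries, untreated and dTAG13 in that order, with 9 of 9 tested genes lower in both replicate 2 libraries. Hand1 and Foxf1 of that list had 1.99 ± 1.54 and 0.82 ± 0.87 between groups. Endothelial genes summed to 215 and 165 CPM in replicate 1 and to 59.3 and 65.9 CPM in replicate 2, with 9 of 10 lower. Pecam1 and Egfl7 had 0.40 ± 0.18 and -0.53 ± 0.49 between groups. Pluripotency genes summed higher in replicate 2, at 1062 and 1184 CPM against 730 and 926 CPM, with 6 of 10 higher in both replicate 2 libraries. Between groups their median was 0.45 and 9 of 10 were higher with dTAG13 in both numbers, with L1td1 at 0.60 ± 0.17 and Tdgf1 at 0.53 ± 0.20. Neuromesodermal progenitor genes summed to 633 and 492 CPM in replicate 2 and to 367 and 355 CPM in replicate 1, with 5 of 10 higher in both replicate 2 libraries. Epha5 of that list was at -0.63 ± 0.24 and Fgf17 at 0.35 ± 0.14 between groups. The labels do not say what the replicate number stands for, and the part of these cell types in the levels of Tubb3, Stmn2, Ina and Map2 was not tested.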

How the data were processed

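RNA was measured in 4 libraries of somitic gastruloids. The authors deposited 1 table of raw read counts by gene symbol for each library, and its closing HTSeq summary lines stayed out of library sizes and tests. The submitters' processing notes list HTSeq 0.12.4, STAR 2.7.6a, fastp 0.20.1 and DESeq2 1.34.0, with mm10 and GRCm38.p6 as builds, and give no roles. The sources used here do not give the counting annotation or the strand setting. Reads of near-identical copies, as among tubulins, are uncertain in such counts.

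Here counts were tested with edgeR 4.0.16 in R 4.3.3: filterByExpr by group (minimum count 10, minimum total 15), TMM factors, robust glmQLFit and glmQLFTest (two-sided) with the group as the only term, with Benjamini-Hochberg adjustment over 13602 genes at 0.05. A standard error is |log2 fold change| over the root of the F value. CPM values use TMM library sizes, and log2 differences between libraries add a prior count of 2. The code was tested on simulated data. Replicates of a group were compared for double deposits, and they differed by more than sampling noise (chi-square per degree of freedom of 30.1 untreated and 25.5 with dTAG13).

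The members and gene lists were chosen with earlier results of these data known. All members were named, and from each other list the 2 genes with the smallest p among those whose average log2 CPM was 0 or more, with Zeb2 and Rest. Lists are described by counts and medians and carry no test. Alternatives were upper quartile or RLE factors, at least 50 counts in 2 libraries, no filter, DESeq2 1.42.0, the replicate number as a block, thinned counts and each library left out. Drgx of the spinal list was not found in the tables. Coordinates and exon lengths are from GENCODE M21 (GRCm38).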

Additional observations from a re-analysis of the deposited data

How the results depend on the processing

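The members' calls rest on few libraries and low counts. No member was called by edgeR with upper quartile or RLE factors, thinned counts, at least 50 counts, no filter or any library left out, nor by DESeq2. DESeq2 called 26 genes higher and 13 lower over all genes, 11 of them in the other lists. The replicate block gave edgeR calls for 395 genes higher and 241 lower (4.68% together, 1.77% lower), 81 genes of the other lists and 1 of 9 members, Onecut2, which was lower at -0.79 (adjusted p = 0.0489); Elavl4 had an adjusted p of 0.180 under the block. The numbers are not said to pair the libraries, and with 2 pairs the correlation of deviations across genes between same-numbered libraries was 0.63. The counts of 3 members lower with groups apart and 5 higher in replicate 2 were 3 and 4 to 5 under other scalings, which were added after seeing the data.

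Signs changed without 1 library for Dcx (-0.37 to 1.31), Ina (-0.23 to 0.72, and -0.011 without untreated replicate 1), Map2 (-0.16 to 0.37, and -0.14), Neurog2 (-1.14 to 0.0087), Stmn2 (-0.33 to 0.81, and -0.15) and Tubb3 (-0.85 to 0.68, and 0.52). The members' median was -0.67 to 0.10 without 1 library. Other medians without 1 library were -0.40 to -0.17 (axon and adhesion), -0.38 to 0.54 (endoderm), 0.72 to 1.64 (epithelial), -0.097 to 0.93 (neural crest), -0.89 to -0.51 (neural progenitor), -0.63 to 0.24 (neuromesodermal), -0.25 to 0.070 (NOTCH), 0.028 to 0.70 (pluripotency), -0.44 to -0.011 (proneural), -0.56 to -0.14 (RNA-binding), -1.34 to -0.63 (somite), -0.18 to 0.84 (spinal) and -0.55 to -0.088 (synaptic). With at least 50 counts the medians were -0.26 for both axon and RNA-binding genes, -0.096 for neural crest and -0.58 for somite genes, and Dcx, Elavl3 and Neurog2 gave no value. A median was taken to have moved when it shifted by more than the pooled SD between replicates of a group, a measure of spread set after seeing the data. By that measure the cardiac (-1.33 to 2.15), endothelial (-1.42 to 0.56) and cytoskeletal (-0.29 to 0.042) medians changed sign within the spread. The cause of these shifts was not tested.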
